A study of Mus musculus with 2 samples.

Results

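The genes of the interferon response and of nucleic acid sensing were examined in mouse primordial germ cells (PGCs), the embryonic precursors of eggs and sperm. A list of 46 gene symbols took in interferon-stimulated genes, sensors of foreign RNA and DNA, interferon receptors, and transcription factors of the IRF and STAT families. A gene was included when both deposited files held a row under its symbol. Of the 46 genes, 42 were included, among 23320 symbols that both files shared, and all 42 were above 0 in both libraries. The other 4 genes, Irf9, Eif2ak2, Oas1a and Zbp1, had a row joined to a neighbouring gene in at least 1 file and are described separately.

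PGCs with strong Oct4-deltaPE-GFP fluorescence were sorted from the genital ridges of E13.5 embryos of both sexes, from matings of MCH females with Oct4-deltaPE-GFP males kept on a C57BL/6J background. The sorted cells received lentivirus at an MOI of 5 and were cultured for 1 day on gelatin. The control culture received a control vector, and the Klf9-OE culture received a vector carrying the Klf9 coding region. Klf9 is a transcription factor of the Krüppel-like family, and the comparison was made to find genes acting downstream of it when PGCs are reprogrammed into pluripotent cells. The sample labels say that the medium held bFGF, whereas the text of the study describes these cultures as lacking it. Both cultures were thus exposed to virus particles, and no uninfected library was analysed here. How many embryos were pooled, and which of the control vectors was used for this library, is not given in the sources used here.

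Each culture gave 1 library, so no difference between them has a replicate check and no test between conditions was possible. Values are FPKM, that is, fragments scaled to the length of the gene's exons and to the total mapped in the library, with the 95% interval that was deposited for each value. The interval covers the error of estimation within a library and not the difference between cultures. The read number behind a value was calculated from its interval, and at equal FPKM the Klf9-OE library held 1.22 implied reads per control read (median of 14715 genes). In the Klf9-OE library the implied reads were mostly even numbers (87.6% of 1817 genes with 1 to 9 reads, against 36.2% of 2177 genes in control), and an interval built on reads entered in pairs would be too narrow. A widened Klf9-OE interval is therefore given where it changes a call. The depth ratio and the Klf9-OE read numbers are given as implied, without a correction for such pairs unless stated.

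Klf9 itself was at 2.27 FPKM (1.97 to 2.57) in control and at 80.8 FPKM (77 to 84.5) in the Klf9-OE library, in the order of the labels. The labelled cell type was checked on 10 PGC genes, all of which were detected, with a summed level of 1520 FPKM in control and 1275 FPKM in Klf9-OE. For 7 of the 10 the interval was lower in Klf9-OE without touching that of control, among them Pou5f1 and Dppa3, and for 1 (Dazl) it was higher as deposited, at 366 to 390 FPKM against 340 to 363 FPKM, and overlapped when widened to 361 to 395 FPKM. Of all 18742 genes above 0, the intervals were apart and higher for 11.2% and apart and lower for 14.4%. At a mean of 10 FPKM or more these shares were 14.2% and 23.3%. Markers of other cells of the genital ridge had far lower summed levels than the PGC genes. The summed level of 12 gonad somatic genes was 27.3 FPKM in control and 36.2 FPKM in Klf9-OE, with Star at 0 in control and Cyp17a1 at 0 in Klf9-OE. The intervals were apart and higher in Klf9-OE for 5 of them and lower for 1. Of the 5, Gata4 overlapped when its Klf9-OE interval was widened to 6.71 to 8.22 FPKM. The summed level of 7 endothelial genes was 20.4 and 30.7 FPKM, with Emcn at 0 in Klf9-OE. Pecam1, at 16.8 and 24.2 FPKM, made up most of it. The Pecam1 values rested on 1048 implied reads in control and only 220 in Klf9-OE, so different transcript models may lie behind them. Pecam1 and Cdh5 (2 and 5.1 FPKM) were higher in Klf9-OE with intervals apart. Tek was lower as deposited, and overlapped when its Klf9-OE interval was widened to 0.281 to 0.596 FPKM. The summed level of 4 of 5 fibroblast genes was 16.3 and 23.6 FPKM, with intervals apart and higher for 3 and lower for 0. That of 13 of 14 macrophage and leukocyte genes was 11.5 and 11.7 FPKM, with Lyz2, C1qb and C1qc at 0 in Klf9-OE and Ptprc at 0.0584 and 0.0239 FPKM. Of these genes Csf1r went the other way, at 0.307 FPKM (0.197 to 0.417) in control and 1.18 FPKM (0.834 to 1.52) in Klf9-OE. Mrc1, Fcer1g and Cd68 also had their higher value in Klf9-OE, with overlapping intervals. The summed level of 5 of 9 erythroid genes was 0.862 and 0.714 FPKM, with 2 of the 5 at 0 in control and 3 in Klf9-OE. Their part in the differences described here was not tested, and in bulk RNA fewer cells of a type cannot be told apart from less RNA per cell.

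Interferons are secreted proteins that cells release after sensing foreign nucleic acid. Cytosolic helicases recognise viral RNA, the enzyme cGAS recognises DNA, and both routes switch on IRF3 and IRF7, which induce type I interferon. Type I interferon binds its receptor and activates a complex that contains STAT2 and IRF9, which binds the interferon-stimulated response element (ISRE) in the promoters of antiviral genes. Interferon gamma binds another receptor and acts mainly at the gamma-activated sequence (GAS), and IRF1 and the guanylate-binding GTPases are among its classical targets. Several of these genes also have a basal level without interferon in many cell types.

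The 42 genes did not differ in a common direction between the libraries. The FPKM was at least 2-fold higher in Klf9-OE for 4 of the 42 genes, Ifit1, Ifit3, Rsad2 and Ifi44, and at least 2-fold lower for 0. The same 2-fold limit was passed upward by 9.82% and downward by 9.43% of the 18742 genes with a value above 0 in either library. The intervals were apart and higher in Klf9-OE for 11 of the 42 genes and apart and lower for 9, against 11.2% and 14.4% of all genes, and they overlapped for 22. With the widened Klf9-OE interval, 9 were higher and 8 lower, against 8.47% and 11.9% of all genes. The median log2 difference, Klf9-OE minus control on the log2(FPKM + 0.1) scale, was 0.13 for the 42 genes and -0.015 for all genes. Of the 42 genes, 26 (61.9%) had the higher FPKM in the Klf9-OE library, as did 48% of all genes. Among the 36 genes with an FPKM of at least 1 in at least 1 library, 1 passed 2-fold upward and 0 downward, and the intervals were apart for 9 in each direction. The shares of the 12565 genes at that level were 3.93% and 3.79% for the fold, and 14.7% and 20.2% for the intervals. With the widened Klf9-OE interval, 8 of the 36 were higher and 8 lower, against 1475 and 2118 of the 12565.

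**Figure D1:**
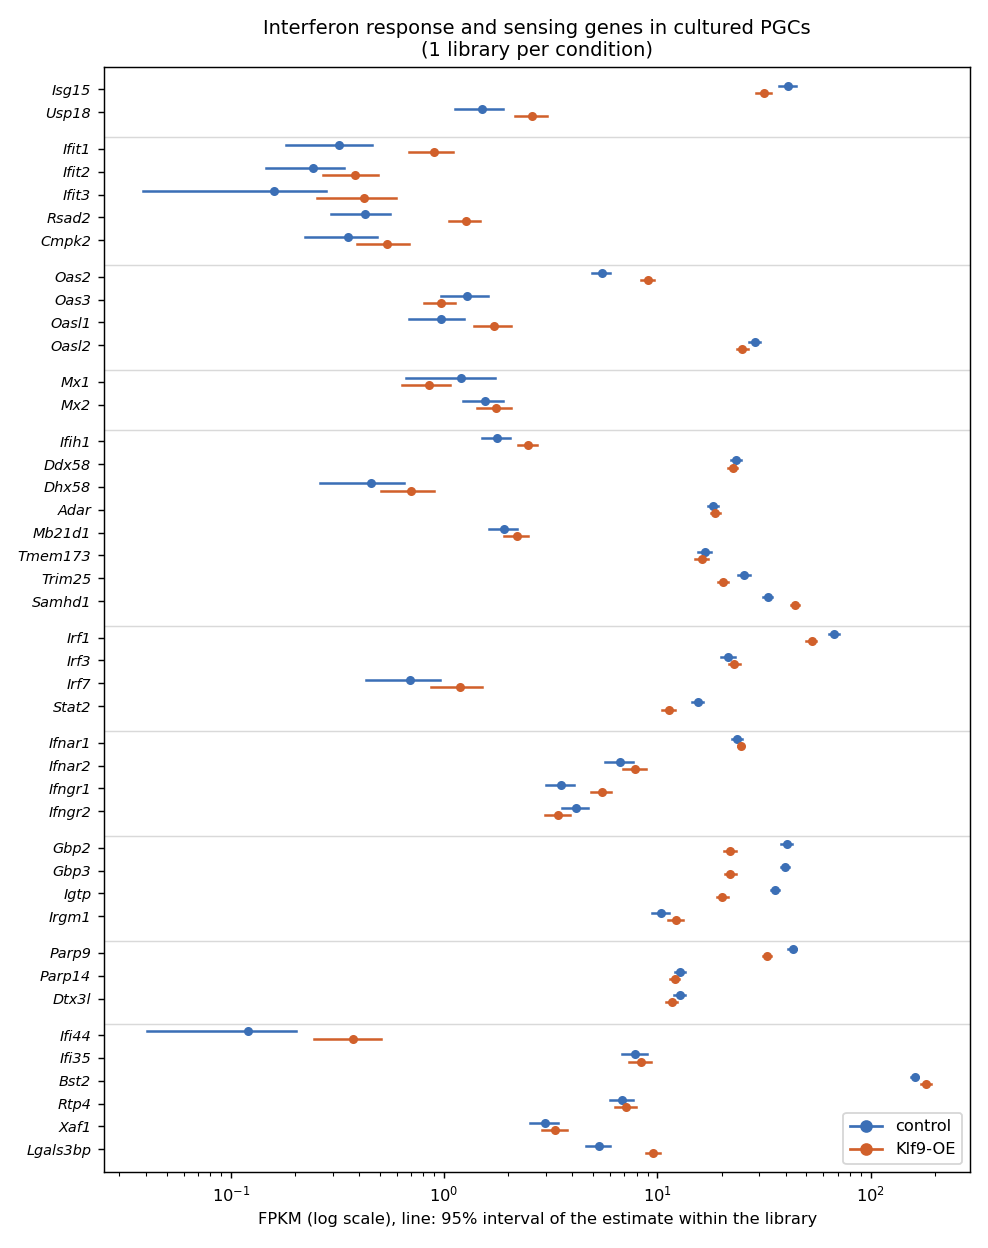
FPKM (log scale) of the 42 genes in the control library (blue) and the Klf9-OE library (orange), arranged by role. Points are the deposited values and lines their 95% intervals within a library; the levels run from below 1 FPKM for the Ifit genes and Rsad2 to above 100 FPKM for Bst2, and the intervals are apart for 20 of the 42 genes.

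The genes of the IFIT family, Rsad2 and Cmpk2 are silent or nearly so in most resting cells and are strongly induced by type I interferon. All 5 had their higher value in Klf9-OE, and all 5 were below 2 FPKM in both libraries. Ifit1, whose product binds viral RNA lacking a host-type cap, was at 0.321 FPKM (0.181 to 0.461) in control and 0.893 FPKM (0.682 to 1.1) in Klf9-OE, a 2.78-fold difference with intervals apart. These values rested on 21 implied reads in control and 71.5 in Klf9-OE, or 35.8 if the latter were entered in pairs. Rsad2 encodes viperin, an antiviral enzyme, and was at 0.426 FPKM (0.293 to 0.558) in control and 1.26 FPKM (1.06 to 1.47) in Klf9-OE, 2.97-fold higher. It was the 1 gene of the list with a difference of at least 2-fold and an FPKM of at least 1. Ifit3, a partner of Ifit1, was at 0.159 FPKM (0.0389 to 0.279) in control and 0.423 FPKM (0.254 to 0.592) in Klf9-OE. The ratio was 2.66, but the intervals overlapped, and the control value rested on 7.01 implied reads. Ifit3b, a near-identical copy of Ifit3, was at 0.138 and 0.311 FPKM, and reads shared by the copies could have been divided between them. Ifit2 was at 0.242 FPKM in control and 0.381 FPKM in Klf9-OE, and Cmpk2, a nucleotide kinase gene 12.8 kb from Rsad2, was at 0.353 and 0.538 FPKM. The intervals of both overlapped. The Ifit2, Ifit3 and Ifit1 loci lie side by side on chromosome 19, with 6.99 kb between Ifit2 and Ifit3 and 51.9 kb between Ifit3 and Ifit1.

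The promoters of Ifit1, Ifit3 and Rsad2 carry copies of the ISRE core, written here as GAAANNGAAA, whereas those of Ifit2 and Cmpk2 held none in the window searched. Ifi44, which was also at least 2-fold higher, held none either. The 60 bases that hold the copies are shown for Ifit1, Ifit3 and Rsad2, and for Isg15, which had its lower value in Klf9-OE. The sequences are from RefSeq on GRCm38.p6 and run 5′ to 3′ along the gene, with every ISRE core in capitals on either strand (overlapping copies run together).
Ifit1, chr19:34640777-34640836, plus strand: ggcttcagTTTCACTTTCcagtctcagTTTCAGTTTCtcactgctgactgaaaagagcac
Ifit3, chr19:34583365-34583424, plus strand: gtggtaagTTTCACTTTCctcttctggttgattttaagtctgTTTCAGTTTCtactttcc
Rsad2, chr12:26456521-26456580, minus strand: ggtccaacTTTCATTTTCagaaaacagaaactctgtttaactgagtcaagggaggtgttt
Isg15, chr4:156200845-156200904, minus strand: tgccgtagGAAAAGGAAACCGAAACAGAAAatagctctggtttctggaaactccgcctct
The stretch began 112 bases before the start of Ifit1, 164 before that of Ifit3, 128 before that of Rsad2 and 86 before that of Isg15. Ifit1 and Ifit3 each held 2 cores, Rsad2 held 1, and Isg15 held 3 overlapping cores. The 50 bases after the start used for Ifit3 were not found in an annotated transcript of that gene, whereas those of Ifit1, Rsad2 and Isg15 were.

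The ISG15 system showed values in opposite directions. Isg15 encodes a ubiquitin-like protein that is attached to other proteins during the interferon response, and it was at 40.8 FPKM (37.1 to 44.5) in control and 31.6 FPKM (28.9 to 34.2) in Klf9-OE. Usp18, which removes ISG15 and restrains signalling at the type I receptor, was at 1.51 FPKM (1.13 to 1.89) in control and 2.58 FPKM (2.14 to 3.03) in Klf9-OE. The intervals were apart for both genes, with log2 differences of -0.37 for Isg15 and 0.74 for Usp18. The Isg15 value in control came from a locus whose identifier was given by the transcript assembly, and that in Klf9-OE from the reference gene alone, so different transcript models may lie behind them.

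The OAS genes encode enzymes that make 2′-5′ oligoadenylate in response to double-stranded RNA, and OAS-like proteins. Oas2 was at 5.49 FPKM (4.96 to 6.01) in control and 9.03 FPKM (8.38 to 9.69) in Klf9-OE, 1.65-fold higher with intervals apart. Oasl1, which in mice restrains translation of Irf7, was at 0.965 FPKM (0.688 to 1.24) in control and 1.72 FPKM (1.38 to 2.06) in Klf9-OE. The intervals were apart as deposited and overlapped when the Klf9-OE interval was widened to 1.24 to 2.2 FPKM. Oasl2, 11 kb away on chromosome 5, had a far higher level and the opposite direction, at 28.7 FPKM (27 to 30.4) in control and 25 FPKM (23.6 to 26.5) in Klf9-OE. Its widened interval, 23 to 27.1 FPKM, overlapped that of control. Oas3 was at 1.28 FPKM (0.963 to 1.6) in control and 0.966 FPKM (0.806 to 1.13) in Klf9-OE. The MX proteins are dynamin-like GTPases that block virus replication. Mx1 was at 1.2 and 0.849 FPKM in control and Klf9-OE, and Mx2 at 1.56 and 1.75 FPKM, and the intervals of Oas3, Mx1 and Mx2 overlapped.

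The sensors and the enzymes that act on nucleic acid fell into genes at 2.47 FPKM or less and genes at 16.1 FPKM or more. Among the RNA helicases, Ddx58, which encodes RIG-I, was at 23.4 FPKM (22.2 to 24.7) in control and 22.6 FPKM (21.4 to 23.8) in Klf9-OE. Ifih1, which encodes MDA5, the sensor of long double-stranded RNA, was at 1.77 FPKM (1.51 to 2.03) in control and 2.47 FPKM (2.22 to 2.73) in Klf9-OE, with intervals apart. Dhx58, which encodes the related regulator LGP2, was at 0.456 and 0.701 FPKM with overlapping intervals. The order of the helicases was therefore the same in both libraries, with Ddx58 far above Ifih1 and Ifih1 above Dhx58. Trim25, a ubiquitin ligase that acts on RIG-I, was at 25.6 FPKM (24 to 27.2) in control and 20.4 FPKM (19.3 to 21.5) in Klf9-OE, with intervals apart. The Trim25 rows had an assembly identifier in both libraries. They rested on 987 implied reads in control and 1423 in Klf9-OE, so different transcript models may lie behind the values. In the DNA route, Mb21d1, which encodes cGAS, was at 1.91 and 2.19 FPKM, and Tmem173, which encodes its downstream adaptor STING, was at 16.7 and 16.1 FPKM. The intervals of both overlapped. Adar, an RNA-editing enzyme that marks self RNA, was at 18.3 FPKM (17.4 to 19.2) in control and 18.7 FPKM (17.8 to 19.6) in Klf9-OE. Samhd1, a dNTP hydrolase that restricts retroviruses, was at 33 FPKM (31.4 to 34.6) in control and 44.4 FPKM (42.4 to 46.3) in Klf9-OE, 1.34-fold higher with intervals apart.

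Among the transcription factors, the 2 genes with intervals apart were lower in Klf9-OE. Irf1, a factor induced above all by interferon gamma, was at 67.7 FPKM (64.1 to 71.3) in control and 52.9 FPKM (50 to 55.7) in Klf9-OE. Stat2, a component of type I signalling, was at 15.5 FPKM (14.5 to 16.4) in control and 11.3 FPKM (10.6 to 12.1) in Klf9-OE. Irf3, present in resting cells, was at 21.4 and 23 FPKM with overlapping intervals. Irf7, the inducible factor that amplifies interferon production, was at 0.692 FPKM (0.431 to 0.953) in control and 1.19 FPKM (0.871 to 1.5) in Klf9-OE. Its ratio was 1.72, and the intervals overlapped.

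All 4 receptor genes were expressed in both libraries. Ifnar1, a chain of the type I receptor, was at 23.7 FPKM (22.5 to 24.9) in control and 24.6 FPKM (24 to 25.3) in Klf9-OE, and its partner Ifnar2 was at 6.69 and 7.9 FPKM, both with overlapping intervals. For the receptor of interferon gamma, the ligand-binding chain Ifngr1 was at 3.55 FPKM (3.02 to 4.07) in control and 5.5 FPKM (4.91 to 6.09) in Klf9-OE, with intervals apart. The signalling chain Ifngr2 was at 4.16 FPKM (3.58 to 4.73) in control and 3.44 FPKM (2.96 to 3.91) in Klf9-OE, with overlapping intervals.

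The interferon-inducible GTPases, which act in defence against intracellular parasites and bacteria, gave the 3 lowest log2 differences of the list. Gbp2 was at 40.6 FPKM (38.2 to 42.9) in control and 22 FPKM (20.6 to 23.4) in Klf9-OE, a log2 difference of -0.88. Gbp3, 47.5 kb from Gbp2 on chromosome 3, was at 39.8 FPKM (37.9 to 41.7) in control and 22 FPKM (20.7 to 23.3) in Klf9-OE, a log2 difference of -0.85. Igtp, an immunity-related GTPase also named IRGM3, was at 35.7 FPKM (34 to 37.4) in control and 20.2 FPKM (19.1 to 21.4) in Klf9-OE, a log2 difference of -0.82. These 3 genes were 1.85-fold, 1.81-fold and 1.77-fold lower, so that none reached 2-fold, and their intervals were apart with the widened Klf9-OE interval as well. Irgm1, of the same family as Igtp, stood apart from them at 10.4 FPKM (9.43 to 11.3) in control and 12.2 FPKM (11.3 to 13.1) in Klf9-OE. The rows of Gbp2 and Gbp3 had an assembly identifier in control and the reference gene alone in Klf9-OE, whereas Igtp rested on the reference gene in both.

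The promoters of these 3 GTPase genes also held the ISRE core near their starts and are shown for comparison with those of the Ifit genes, with the cores again in capitals.
Gbp2, chr3:142620596-142620655, plus strand: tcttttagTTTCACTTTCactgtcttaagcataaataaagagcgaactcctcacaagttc
Gbp3, chr3:142559984-142560043, plus strand: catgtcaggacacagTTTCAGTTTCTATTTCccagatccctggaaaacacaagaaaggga
Igtp, chr11:58199496-58199555, plus strand: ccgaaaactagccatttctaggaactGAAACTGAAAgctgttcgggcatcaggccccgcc
Gbp2 and Igtp held 1 core and Gbp3 held 2 overlapping cores. The stretches began 67 bases before the start of Gbp2 and 60 bases before those of Gbp3 and Igtp. The deposited Gbp3 locus begins further upstream, at position 142552509, than the RefSeq start used for this promoter.

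Parp9, Parp14 and Dtx3l, which encode ADP-ribosyltransferases and a ubiquitin ligase that binds PARP9, all had their lower value in Klf9-OE. Parp9 was at 43.1 FPKM (41.2 to 44.9) in control and 32.6 FPKM (31.2 to 34) in Klf9-OE, with intervals apart. Dtx3l was at 12.7 and 11.7 FPKM and Parp14 at 12.8 and 12.1 FPKM, and the intervals of both overlapped. The Dtx3l and Parp9 loci overlap by 558 bases on chromosome 16, and the library kit does not keep strand, so reads from the overlap cannot be assigned to either gene by strand.

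The 6 remaining interferon-stimulated genes all had their higher value in Klf9-OE. Bst2, which encodes tetherin, a membrane protein that holds budding virus on the cell, had a higher level than the other 41 genes, at 161 FPKM (155 to 167) in control and 182 FPKM (173 to 192) in Klf9-OE. Its mean level was at the 97.8 percentile of all genes, and its intervals were apart with a ratio of 1.13. The Bst2 row had an assembly identifier in Klf9-OE only, so different transcript models may lie behind the values. They rested on 2491 implied reads in control and 1386 in Klf9-OE. Lgals3bp, which encodes a secreted glycoprotein, was at 5.31 FPKM (4.65 to 5.98) in control and 9.58 FPKM (8.81 to 10.3) in Klf9-OE, 1.8-fold higher with intervals apart. The Lgals3bp row had an assembly identifier in control only. Ifi44 was at 0.121 FPKM (0.0403 to 0.201) in control and 0.374 FPKM (0.245 to 0.504) in Klf9-OE, a ratio of 3.1. Ifi44 had 9 implied reads in control and 33.4 in Klf9-OE, or 16.7 if the latter were entered in pairs. Its intervals were apart as deposited, and overlapped when the Klf9-OE interval was widened to 0.191 to 0.557 FPKM. Ifi35 was at 7.85 and 8.34 FPKM, Rtp4 at 6.84 and 7.13 FPKM, and Xaf1, a pro-apoptotic gene, at 2.97 and 3.33 FPKM, and the intervals of these 3 overlapped.

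**Figure D2:**
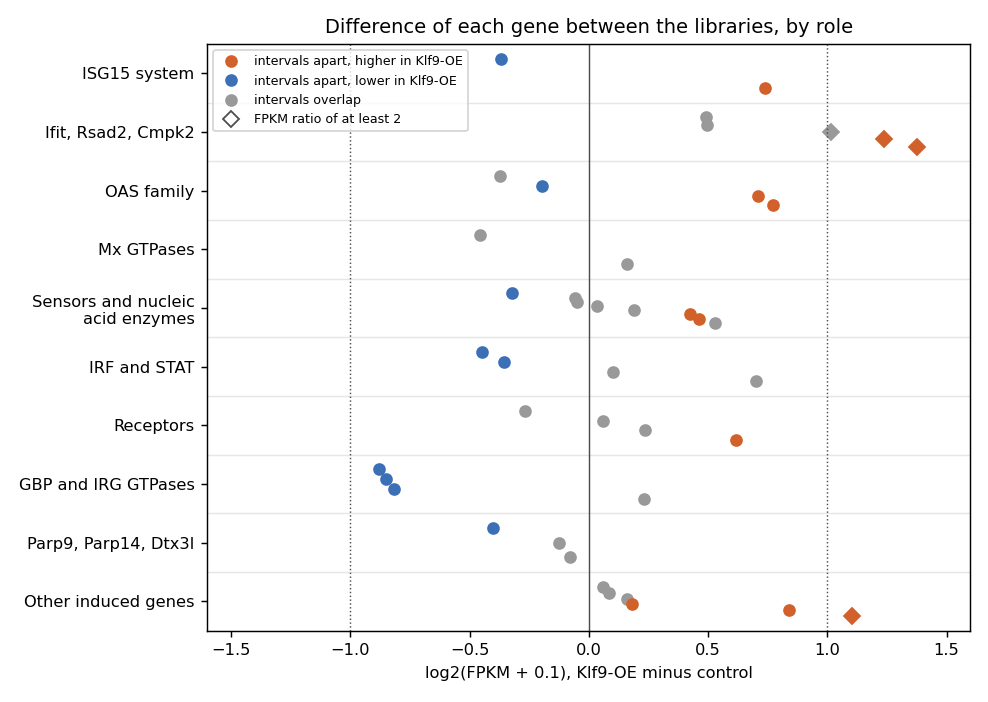
Log2 difference of each gene, Klf9-OE minus control on the log2(FPKM + 0.1) scale, by role. Orange and blue points mark genes whose intervals were apart, grey points genes whose intervals overlapped, and diamonds the 4 genes with an FPKM ratio of at least 2; the dotted lines stand at -1 and 1, and the 3 blue points at -0.88 to -0.82 are Gbp2, Gbp3 and Igtp.

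The counts in each direction were not the same at all levels. Bounds of 2 and 10 FPKM on the mean of both libraries were chosen after the values were seen. Below 10 FPKM lay 23 of the 42 genes, of which 20 were higher in Klf9-OE, 9 with intervals apart, while the intervals were apart and lower for 0. Of all 11995 genes below 10 FPKM, 50.8% were higher, and the intervals were apart and higher for 9.42% and apart and lower for 9.38%. With the widened Klf9-OE interval, 7 of the 23 were higher and 0 lower, against 816 and 915 of all 11995. The median log2 difference was 0.5 for the 23 genes and 0.010 for all genes below 10 FPKM. At 10 FPKM or more lay 19 genes, of which 13 were lower in Klf9-OE, 9 with intervals apart, while Samhd1 and Bst2 were higher with intervals apart. Of all 6747 genes at that level, 57% were lower, and the intervals were apart and lower for 23.3% and apart and higher for 14.2%. With the widened Klf9-OE interval, 8 of the 19 were lower and 2 higher, against 1323 and 771 of all 6747. The median log2 difference was -0.13 for the 19 genes and -0.032 for all genes at that level. Within the lower range, the median was 0.61 for the 12 genes below 2 FPKM and 0.24 for the 11 genes from 2 to 10 FPKM, against 0.032 and -0.015 for all genes at those levels.

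**Figure D3:**
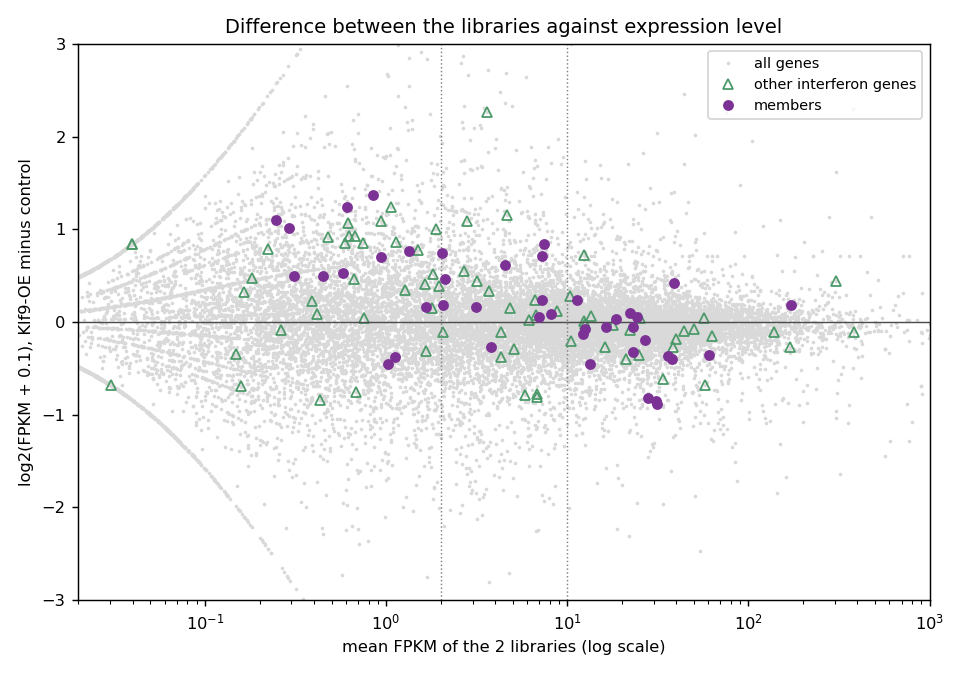
Log2 difference (Klf9-OE minus control, on the log2(FPKM + 0.1) scale) against the mean FPKM of the 2 libraries (log scale) for all genes (grey), the 42 listed genes (purple) and the other interferon genes (green triangles), with dotted lines at 2 and 10 FPKM. Points beyond -3 to 3 or the level range shown are not drawn; purple points below 10 FPKM lie mostly above 0 (20 of 23), and those at 10 FPKM or more lie mostly below it (13 of 19).

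The kind of transcript model went along with this pattern. Of the 42 genes, 17 rested on reference genes alone in both files, 13 had an assembly identifier in both, 8 in control only and 4 in Klf9-OE only. Among the 17 genes on reference models in both files, 15 were higher in Klf9-OE, 6 with intervals apart, 1 gene (Igtp) was lower with intervals apart, and the median log2 difference was 0.43. Of all 8247 genes on reference models in both files, 50.8% were higher, the intervals were apart and higher for 7.37% and apart and lower for 8.06%, and the median was 0.009. With the widened Klf9-OE interval, 5 of the 17 were higher and 1 lower, against 417 and 536 of all 8247. The 17 genes had a median mean level of 3.15 FPKM, against 7.37 FPKM for the 42 genes. The part of the transcript model in the differences was not tested.

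Of the 4 genes in joined rows, 2 were joined in both files. The row of Eif2ak2, which encodes PKR, the kinase that shuts down translation on double-stranded RNA, was shared with Gm6548 and stood at 135 FPKM (129 to 142) in control and 65.7 FPKM (62.5 to 69) in Klf9-OE, 2.06-fold lower. The reads of Eif2ak2 and of Gm6548, annotated as a processed pseudogene, cannot be told apart in this row, and it is counted neither among the 42 genes nor among those 2-fold lower. The row of Irf9, shared with Rnf31, was at 21.3 FPKM (20.1 to 22.6) in control and 22.7 FPKM (21.5 to 23.9) in Klf9-OE. Oas1a was joined to Oas1g in control, at 14.2 FPKM, and had a row of its own in Klf9-OE at 10.2 FPKM (9.25 to 11.2), where Oas1g was at 4.34 FPKM. The sum in Klf9-OE, 14.6 FPKM, was close to the joined control value. Zbp1, a sensor of Z-form nucleic acid, was joined to Pmepa1 in control, at 26.7 FPKM (24.4 to 29), and had its own row in Klf9-OE at 14.1 FPKM (12.4 to 15.8), where Pmepa1 was at 2.23 FPKM. The sum of the 2 genes was 16.3 FPKM in Klf9-OE, 1.64-fold lower than the joined row in control.

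A further 93 genes of the pathway were looked up, of which 87 had a row in both files and 76 were above 0. Of the 12 interferon genes themselves, 10 were listed at 0 in both libraries, type I and gamma interferon among them. Ifnl2 and Ifnl3, near-identical genes of interferon lambda, were listed at 0 in control and at 0.0788 FPKM in Klf9-OE. That is the worth of 1 implied read each, or 0.5 if reads were entered in pairs. Of the 76 genes, 16 passed 2-fold upward in Klf9-OE and 3 passed it downward, against 9.82% and 9.43% of all genes. The 16 take in 4 genes listed at 0 in control (Mavs, Ifnl2, Ifnl3 and Tlr9), and 12 were above 0 in both libraries. The intervals were apart and higher for 13 of the 76 genes (17.1%) and lower for 15 (19.7%), against 11.2% and 14.4% of all genes. With the widened Klf9-OE interval, 11 were higher and 11 lower, against 8.47% and 11.9% of all genes. The median log2 difference of the 76 genes was 0.079. By level, the median was 0.46 for the 33 genes below 2 FPKM, 0.12 for the 19 genes from 2 to 10 FPKM and -0.10 for the 24 genes at 10 FPKM or more, and the share with the higher value in Klf9-OE was 78.8%, 63.2% and 29.2%. The same shares over all genes were 52.2%, 48.1% and 43%. Below 2 FPKM, the intervals were apart and higher for 5 of the 33 genes and lower for 1. From 2 to 10 FPKM these counts were 5 and 5, and at 10 FPKM or more 3 and 9. All genes of this wider group below 10 FPKM gave 10 higher and 6 lower, or 8 and 5 with the widened Klf9-OE interval. The listed genes at that level gave 9 higher and 0 lower as deposited, so their lack of lower calls did not recur here.

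The genes of this wider group that passed 2-fold with intervals apart and at least 1 FPKM were all higher in Klf9-OE. Cxcl10, a chemokine induced by both kinds of interferon, was at 1.18 FPKM (0.739 to 1.61) in control and 6.05 FPKM (5.14 to 6.96) in Klf9-OE, 5.14-fold higher. The values rested on 29 implied reads in control and 177 in Klf9-OE, or 88.4 if the latter were entered in pairs. Tor3a, an interferon-induced torsin, was at 2.82 and 6.43 FPKM. The Tor3a row had an assembly identifier in control only, and the values rested on 114 implied reads in control and 651 in Klf9-OE. Isg20, an exonuclease that degrades RNA, was at 1.76 and 3.86 FPKM, on 17.9 and 98.8 implied reads. Ifi204, a DNA-binding PYHIN protein, was at 0.564 and 1.32 FPKM. Mavs, the adaptor of the RNA helicases, was listed at 0 in control and at 6.97 FPKM (6.36 to 7.58) in Klf9-OE. No fold is given, since a listed 0 may stand for an estimate that failed.

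Some relatives of Gbp2, Gbp3 and Igtp are given here, chosen after their values were seen. Tgtp1 and Tgtp2, near-identical immunity-related GTPases between which reads could have been divided, were at 8.65 and 8.66 FPKM in control and at 4.88 and 5.03 FPKM in Klf9-OE. Their intervals were apart, as were those of Gbp6, at 0.585 and 0.281 FPKM, and Gbp7, at 4.88 and 3.74 FPKM. Irgm2 was at 5.63 FPKM (5.08 to 6.19) in control and 4.58 FPKM (4.17 to 4.99) in Klf9-OE, with intervals apart as deposited and overlapping when the Klf9-OE interval was widened to 4 to 5.16 FPKM. Gbp9 went the other way, at 0.5 FPKM (0.352 to 0.648) in control and 0.986 FPKM (0.68 to 1.29) in Klf9-OE, and its intervals overlapped when that of Klf9-OE was widened to 0.554 to 1.42 FPKM. Gbp4 was at 0.136 and 0.229 FPKM, Gbp5 at 0.179 and 0.119 FPKM and Iigp1 at 0.219 and 0.0979 FPKM, and the intervals of these 3 overlapped.

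Promoter sequences of 250 bases before to 50 bases after the start were matched for 35 of the 46 genes, and letters were searched on both strands. The ISRE core was found in 15 of the 35 genes (42.9%) and in 3.99% of 27025 genes with a promoter, or in 3.64% of the 13585 above 0. The GAS, searched as TTCNNNGAA, was found in 11 of the 35 (31.4%) and in 9.55% of all, or in 8.7% of those above 0. The GC box GGGCGG, the kind of GC-rich element that Krüppel-like factors bind, was found in 18 of the 35 (51.4%) and in 38.2% of all, or in 57.1% of the 13585 genes above 0 with a promoter. ISRE core and GAS letters overlapped in 1 of the promoters of the listed genes. The list was chosen to hold interferon-stimulated genes, so its shares of ISRE core and GAS are not a result about these libraries. A match of letters does not show that a factor bound there.

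Genes with and without the ISRE core lay on both sides of 0. The log2 difference of the 13 measured genes with the core ran from -0.88 to 1.37, with a median of -0.056, and the intervals were apart and higher for 4 (Ifit1, Rsad2, Ifih1 and Bst2) and lower for 5 (Isg15, Stat2, Gbp2, Gbp3 and Igtp). The 19 measured genes without it ran from -0.35 to 1.1, with a median of 0.16. Ifit1 and Isg15, whose cores are shown above, had differences of 1.24 and -0.37. The median was 0.086 for the 9 genes with the GAS and 0.16 for the 23 without it. It was 0.086 for the 17 genes with a GC box and 0.5 for the 15 without one. Expression level was not matched between these groups. Ifit1, Ifit3, Rsad2, Ifi44, Gbp2 and Gbp3 had no GC box in this window, whereas Igtp had 1.

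**Figure D4:**
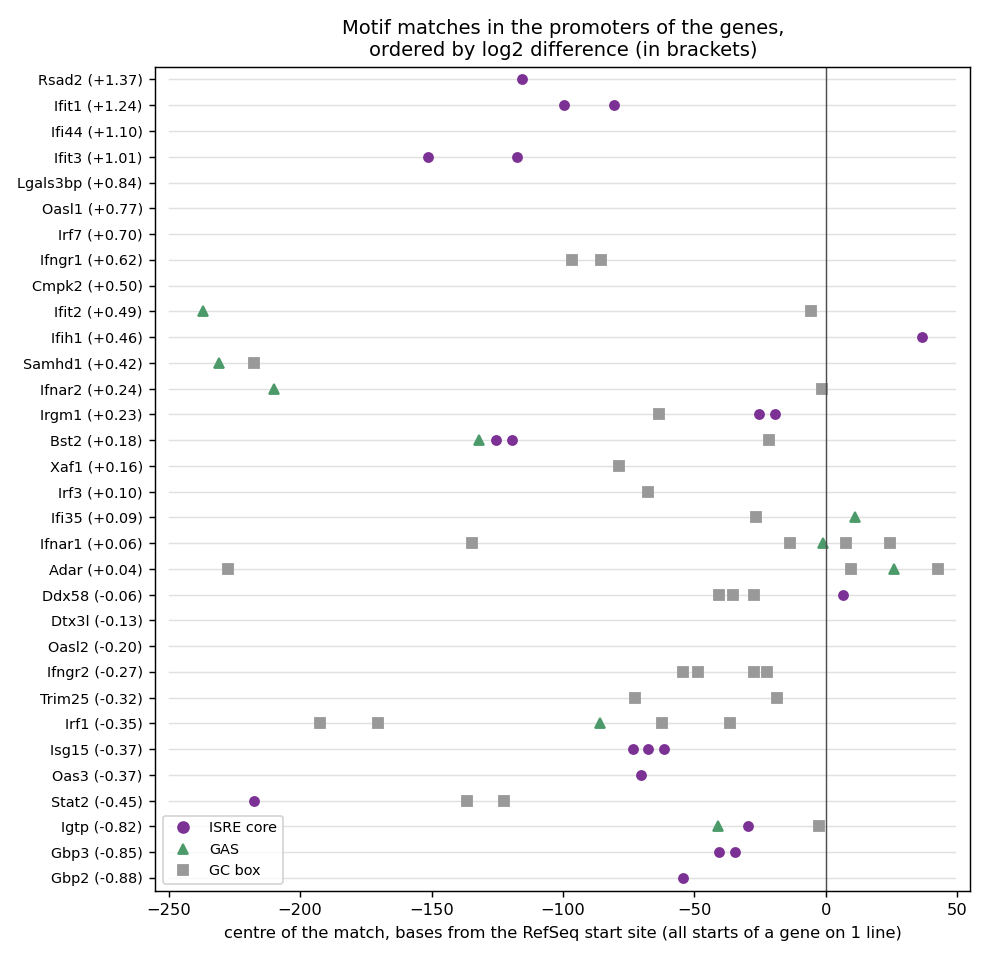
Centres of matches to the ISRE core (purple circles), the GAS (green triangles) and the GC box (grey squares) around the RefSeq start site for the 32 listed genes with a promoter and a measured difference, with distance from the start in bases on the horizontal axis. Genes are ordered from the highest log2 difference (Rsad2, 1.37) to the lowest (Gbp2, -0.88), and the ISRE core is found at both ends of the order.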

How the data were processed

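Total RNA of 1 control and 1 Klf9-OE culture was sequenced from unstranded TruSeq v2 libraries. The authors used TopHat2 and Bowtie for mapping (mm10) and Cufflinks for quantification, and deposited locus by locus the FPKM and its 95% interval. Cufflinks also assembled transcripts, and a locus with an assembly identifier may hold other transcripts than its reference gene. Versions are not given in the sources used here. The files hold no read totals, so the reads behind a value were calculated as the square of 2 times the FPKM over the distance to its upper bound.

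FPKM was summed over rows of a symbol. Ratios used no pseudocount, and log2 differences a pseudocount of 0.1. Widened intervals multiplied the Klf9-OE distance by the square root of 2. Every listed gene was named, and of the other interferon genes those at 1 FPKM or more, 2-fold apart and with intervals apart. Ligands were counted, and Ifnl2, Ifnl3, Tlr9, Ifit3b and relatives of Gbp2, Gbp3 and Igtp were named besides, chosen after their values were seen. The members and lists were chosen with earlier results of these data known. Promoters are from RefSeq (GRCm38.p6), and 11 listed genes had none. Alternatives changed the pseudocount, filter, scaling, fold, joined rows, intervals and transcript models. The steps were tested on simulated data. Python 3.11.15, numpy 2.4.6, pandas 2.3.3 and matplotlib 3.10.9 were used.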

Additional observations from a re-analysis of the deposited data

How the results depend on the processing

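Of the 4 listed genes at least 2-fold higher, 0 remained past that fold with a pseudocount of 1, 1 with an FPKM of at least 1, and 0 passed 4-fold, while 13 passed 1.5-fold. With the pseudocount of 1 the log2 differences were 0.52 for Ifit1, 0.30 for Ifit3, 0.67 for Rsad2 and 0.29 for Ifi44, so these calls rest on low values. At least 2-fold lower were 0 genes, 1 with joined rows added (Eif2ak2), and 3 at 1.5-fold (Gbp2, Gbp3 and Igtp). The other interferon genes at least 2-fold higher numbered 16, and 2 with a pseudocount of 1, 7 with an FPKM of at least 1 and 5 at 4-fold. Of the 5 at 4-fold, only Cxcl10 was above 0 in both libraries, and Mavs, Ifnl2, Ifnl3 and Tlr9 were listed at 0 in control. The other interferon genes at least 2-fold lower numbered 3, and 0 with a pseudocount of 1, 0 with an FPKM of at least 1 and 10 at 1.5-fold. At 4-fold there was 1, which was listed at 0 in Klf9-OE. On reference models alone, an alternative chosen after seeing the data, 6 listed genes were higher and 1 lower with intervals apart, and the median was 0.43. The median of the listed genes lay between 0.058 and 0.19 under the planned settings, and scaling to equal sums moved the median of all genes from -0.015 to 0.041. None of the 173 values of 21 named genes changed sign. Only rescaling could have changed one, and its factors on Klf9-OE were 1.02 and 1.044. The other settings left the order of control and Klf9-OE fixed for these genes, so the unchanged signs are no check on them. No paired analysis was possible because each condition had 1 library, and no replicate could be left out. Depth limits the genes below 1 FPKM: among the 42 listed genes a value rested on as few as 7.01 implied reads (Ifit3), and those of Ifnl2 and Ifnl3 rested on 1.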
